A study of Mus musculus with 6 samples.

Results

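The fibroblast growth factor (FGF) genes described here are the binding proteins Fgfbp1 and Fgfbp3, the ligands Fgf1, Fgf2 and Fgf10, and the receptors Fgfr1, Fgfr2, Fgfr3 and Fgfr4, which make up 9 of the 21878 genes in the count table. The set was chosen by gene name around Fgfbp1, which was itself selected on the comparison described below, since it was 1 of the 16 genes (0.113% of the 14143 tested) with an adjusted p under 0.05 in edgeR's quasi-likelihood test. The difference of these 9 genes between the groups is therefore given as a description, with no test. RNA was sequenced from whole thyroid glands of female mice aged 12 weeks. The 3 control mice (Thy-Tet1+/+) were wild-type littermates, and the 3 mice labelled Thy-Tet1-/- came from crossing a floxed Tet1 allele with a Cre driver under a promoter active in thyroid follicular cells. The other cells of the gland are not targeted by that Cre, and neither group received a treatment. Whether the control mice carried Cre or an unrecombined floxed allele is not given in the sources used here.

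FGFs are secreted ligands that bind receptor tyrosine kinases together with heparan sulfate chains on the cell surface and in the matrix. The FGF binding proteins are secreted carriers that take up FGFs held by heparan sulfate and can present them to receptors. Activated receptors signal through the RAS and MAP kinase relay, which turns on both target genes and feedback inhibitors such as the sprouty and dual-specificity phosphatase families. In the embryo, Fgf10 from the mesenchyme and its receptor Fgfr2 in the epithelium are needed for the thyroid to form.

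The stretches just upstream of the 2 binding protein genes are shown because TET1 oxidises methylated cytosines, mostly in CpG pairs, and these genes are close in function. Capitals mark the CpG pairs. The RefSeq sequences (GRCm38.p6) lie on the minus strand, at chr5:43981829-43982049 for Fgfbp1 and chr19:36919616-36919849 for Fgfbp3, outside the annotated exons, and read 5′ to 3′.
Fgfbp1: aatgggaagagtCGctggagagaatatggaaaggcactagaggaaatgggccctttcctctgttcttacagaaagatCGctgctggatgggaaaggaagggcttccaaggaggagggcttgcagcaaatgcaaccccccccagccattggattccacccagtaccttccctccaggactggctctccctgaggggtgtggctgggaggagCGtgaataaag
Fgfbp3: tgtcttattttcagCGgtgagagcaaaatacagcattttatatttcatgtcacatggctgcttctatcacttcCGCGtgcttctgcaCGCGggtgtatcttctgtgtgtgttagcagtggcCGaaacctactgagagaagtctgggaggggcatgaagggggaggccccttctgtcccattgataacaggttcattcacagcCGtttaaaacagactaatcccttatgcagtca
The Fgfbp1 stretch holds 3 CpG pairs in 221 bases and the Fgfbp3 stretch 7 in 234 bases. Windows of 300 bases, from 250 before to 50 after a gene's start, were given for 7 of the 9 genes (8 windows, with 2 for Fgfr3). Fgfbp1 and Fgfr2 had 4 CpG pairs each, Fgfbp3 had 9 and Fgf10 had 10, beside a median of 7 over all 32851 mouse promoter windows. Fgfr4 had 20, Fgf2 had 24, and Fgfr3 had 26 and 30. The CpG count therefore ranged from below to well above the genome's median among these genes. Both strands were searched for 4 motifs. TATAAA was found in the windows of Fgfbp1 and Fgfbp3 and in 13.6% of all windows, and CACGTG in that of Fgfr2 and in 7.15% of all. GGGCGG was found in those of Fgf10, Fgfr4, Fgf2 and Fgfr3 and in 35.7% of all, and TGANTCA in none of the 8 and in 7.81% of all. Methylation and factor binding were not measured in these libraries.

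Total counts ran from 8867683 to 19950898 in the control libraries and from 16624425 to 17699501 in those labelled Thy-Tet1-/-, where a level of 3 counts is 0.150 to 0.338 CPM, the unit of counts scaled to a common library size. The targeted gene went against its label. Tet1 had 5.69, 3.80 and 3.44 CPM in the control libraries and 9.37, 9.60 and 12.2 CPM in the libraries labelled Thy-Tet1-/-, a log2 fold change of 1.28 ± 0.27 (SE) with an adjusted p of 0.101 in edgeR's quasi-likelihood test. The count covers the whole gene, and reads from the floxed part cannot be separated from the rest. Follicular markers were abundant, except Slc26a4 with at most 5 counts, and Tg made up 99.1 to 99.4% of the sum of the 10. Tg had 252697 to 313667 CPM in the controls and 190892 to 236526 CPM in the other group. The other 9 summed to 1648 to 2064 and 1676 to 1850 CPM. Among them Pax8 and Nkx2-1 were higher and Tshr and Iyd lower in every library labelled Thy-Tet1-/- than in any control. For Iyd the gap was narrow, with 618 CPM or more against 613 CPM or less. The rest overlapped. Several libraries stood apart in tissue that can lie beside the gland. Skeletal muscle markers summed to 870 to 7210 CPM in the controls, but to 102, 7849 and 17.5 CPM in the libraries labelled Thy-Tet1-/-. Thymocyte markers reached 111 CPM in control 1 and 404 CPM in labelled Thy-Tet1-/- 3, against 4.87 CPM or less in the other 4. Parathyroid markers summed to only 212 CPM in control 2, against 521 to 1083 CPM in the remaining libraries. Results are therefore given with each library left out in turn. In RNA from whole tissue, fewer cells of a type and less RNA per cell cannot be told apart.

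Fgfbp1 was higher in every library labelled Thy-Tet1-/- than in any control, with a difference in mean level of 4.39-fold. Its product is a secreted carrier of FGF1, FGF2 and other FGFs, best known from squamous epithelia and their tumours. The counts were 37, 82 and 75 in the controls against 260, 348 and 432 in those labelled Thy-Tet1-/-. In CPM these were 4.39, 4.39 and 4.16 against 14.2, 20.6 and 22.0. The controls lay within a narrow band, closer together than counting error alone would be likely to give at these counts. Nothing is read from that closeness. The groups were far apart, with the lowest library labelled Thy-Tet1-/- 3.23 times the highest control. The means were 4.31 ± 0.131 and 18.9 ± 4.16 CPM (SD, n = 3 each), and the log2 fold change was 2.13 ± 0.22 (SE). It stayed between 2.00 and 2.28 with each library left out. The gene lies at chr5:43978858-43981828 (GRCm38.p6), and none of its exons overlaps an exon of another gene in the annotation. Markers of basal and squamous epithelium (12 of 12 in the table, none at 3 counts or fewer in every library) summed to 43.4 to 117 CPM in the controls and to 47.3, 62.6 and 159 CPM in the libraries labelled Thy-Tet1-/-. These sums overlapped between the groups, and labelled Thy-Tet1-/- 3 had both the highest sum and the most Fgfbp1. Their part in the Fgfbp1 difference was not tested.

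Fgfbp3, the other binding protein gene listed, differed by much less. Its levels were 3.68, 3.21 and 3.33 CPM in the controls and 5.72, 4.86 and 3.86 CPM in the libraries labelled Thy-Tet1-/-. All 3 of the latter were above the controls, but by a factor of only 1.05 between the nearest libraries. The means were 3.41 ± 0.244 and 4.81 ± 0.930 CPM (SD, n = 3 each), and the log2 fold change was 0.50 ± 0.27 (SE), with a range of 0.34 to 0.64 over the 6 fits that leave out a library. Fgfbp3 lies at chr19:36917550-36919599 (GRCm38.p6).

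**Figure D1:**
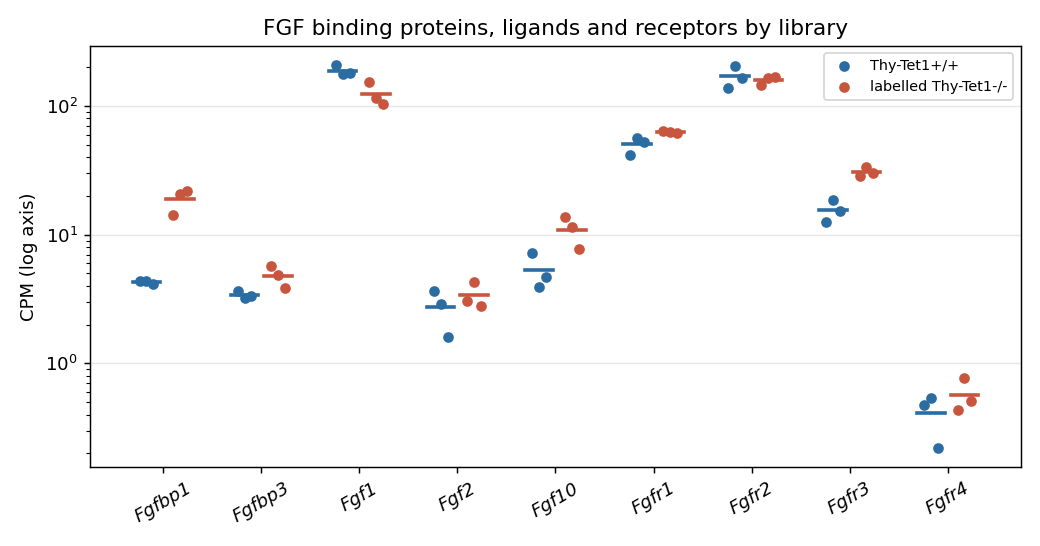
Level of each FGF gene in CPM (log axis) in the 3 Thy-Tet1+/+ libraries (blue) and the 3 labelled Thy-Tet1-/- (red), with a point for each library and a line at the group mean. Fgfbp1 shows the widest gap, 4.16 to 4.39 against 14.2 to 22.0 CPM, while the points of Fgf2, Fgfr2 and Fgfr4 overlap.

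Of the 3 ligand genes, Fgf1 was lower, Fgf10 higher and Fgf2 overlapping between the groups. Fgf1, a ligand of all FGF receptors that lacks a classical signal peptide, was by far the most abundant. It had 208, 178 and 180 CPM in the controls and 154, 115 and 103 CPM in the libraries labelled Thy-Tet1-/-. The groups did not overlap, and the mean was 188 ± 17.0 against 124 ± 27.1 CPM (SD, n = 3 each), 1.52 times higher in the controls. The log2 fold change was -0.60 ± 0.18 (SE), from -0.81 without labelled Thy-Tet1-/- 1 to -0.49 without labelled Thy-Tet1-/- 3. A list of 10 epithelial genes that are not in the follicular list, including Epcam, Cdh1 and Krt8, does not separate follicular from other epithelium. These genes summed to 2924 to 3635 CPM in the controls and 2169 to 2366 CPM in the libraries labelled Thy-Tet1-/-, so their sum was lower alongside Fgf1. Cdh1, Krt8, Krt7, Cdh16 and Spint2 were lower in every library of the second group than in any control. Epcam, Krt18, Ocln, Cldn3 and Spint1 overlapped between the groups. With the libraries scaled to those 10 genes the log2 fold change of Fgf1 was -0.13, or -0.61 relative to the median of all genes, which that scaling moved by 0.49. That scaling moves all genes by nearly the same amount, so the value relative to the median repeats the main fit. The part of epithelial content in the difference was not tested.

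Fgf10, a mesenchymal ligand of the epithelial form of Fgfr2, had 7.24, 3.96 and 4.66 CPM in the controls and 13.8, 11.4 and 7.67 CPM in the libraries labelled Thy-Tet1-/-. The groups were separated by a factor of only 1.06 between control 1 and labelled Thy-Tet1-/- 3. The mean was 5.29 ± 1.73 against 11.0 ± 3.08 CPM (SD, n = 3 each), a 2.07-fold difference, and the log2 fold change was 1.06 ± 0.33 (SE). It ranged from 0.85 without labelled Thy-Tet1-/- 1 to 1.35 without control 1. Adipocyte markers moved with it in part. These (7 of 7 in the table, none at 3 counts or fewer in every library) summed to 660, 370 and 279 CPM in the controls and 2045, 1045 and 565 CPM in the libraries labelled Thy-Tet1-/-, with the highest value of each group in the library that also had the most Fgf10. The adipocyte sums overlapped between the groups, with 660 CPM in control 1 and 565 CPM in labelled Thy-Tet1-/- 3. Controls 2 and 3 were in the opposite order for these markers and for Fgf10. The part of adipocytes in the Fgf10 difference was not tested.

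Fgf2, a ligand bound by heparan sulfate in the matrix, was close to the lower end of what these libraries measure well. It had 3.68, 2.89 and 1.61 CPM in the controls (54 counts or fewer) and 3.05, 4.32 and 2.79 CPM in the libraries labelled Thy-Tet1-/-. The groups overlapped, and the log2 fold change of 0.33 ± 0.40 (SE) was smaller than its error. It was 0.05 without control 3 and 0.59 without control 1. Exons of Fgf2 share 640 bases with Nudt6 on the opposite strand and 255 bases with a transcript not in the table, so its counts are uncertain by the reads that such overlaps may have moved.

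Among the receptors, Fgfr3 was higher in the libraries labelled Thy-Tet1-/-, Fgfr1 slightly so, and Fgfr2, the most abundant, overlapped. Fgfr3, which restrains bone growth and is also used by epithelia, had 12.6, 18.5 and 15.4 CPM in the controls and 28.7, 33.7 and 30.4 CPM in the libraries labelled Thy-Tet1-/-. The lowest of the latter was 1.55 times the highest control. The mean was 15.5 ± 2.97 against 30.9 ± 2.55 CPM (SD, n = 3 each), a 2.00-fold difference, and the log2 fold change was 0.99 ± 0.17 (SE), between 0.87 and 1.14 with each library left out. Cartilage markers (8 of 8 in the table) summed to 10.4 to 19.9 CPM in the controls and 23.6 to 32.8 CPM in the libraries labelled Thy-Tet1-/-, with Col2a1, Matn1 and Matn3 at 3 counts or fewer in every library. Col11a2, from the same list, had 3.85 to 4.22 and 6.22 to 14.0 CPM, and Col9a1 had 3.44 to 12.3 CPM in the controls and 12.8 CPM or more in the other group. Lect1, Acan and Comp overlapped between the groups, with Comp at 0.721 to 1.66 and 0.508 to 0.948 CPM. Within the second group Fgfr3 was highest in labelled Thy-Tet1-/- 2, Col9a1 in labelled Thy-Tet1-/- 1 and Col11a2 in labelled Thy-Tet1-/- 3. The part of cartilage in the Fgfr3 difference was not tested. Exons of Fgfr3 share 998 bases with a transcript on the opposite strand that is not in the table.

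Fgfr1, the receptor typical of mesenchymal cells, had 41.6, 56.8 and 52.3 CPM in the controls and 64.1, 63.3 and 62.1 CPM in the libraries labelled Thy-Tet1-/-. The latter lay close together and above every control, and the log2 fold change was small, 0.33 ± 0.13 (SE), with 0.21 without control 1 and 0.43 without control 2. Fibroblast markers (8 of 8 in the table) summed to 932 to 1218 CPM in the controls. The libraries labelled Thy-Tet1-/- had 1032 to 1249 CPM, so the sums overlapped. Pdgfra, Pi16 and Dcn were higher in every library of the second group than in any control, and Col1a1 was lower. Pdgfra had at most 36.7 CPM in the controls and at least 50.7 CPM in the second group. These bounds were 18.1 and 24.3 CPM for Pi16, and 389 and 433 CPM for Dcn. Col1a1 had 88.9 CPM or more against 87.3 CPM or less. Col1a2, Col3a1, Lum and Dpt overlapped. The part of fibroblasts in the Fgfr1 difference was not tested. The Fgfr1 exons share 164 bases with an antisense transcript.

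Fgfr2, whose epithelial and mesenchymal splice forms are counted together here, had 138, 206 and 166 CPM in the controls and 146, 165 and 169 CPM in the libraries labelled Thy-Tet1-/-. The second group fell inside the range of the first. Its log2 fold change of -0.09 ± 0.17 (SE) became 0.10 with library totals, 0.42 with scaling to the epithelial genes and 0.070 without control 2, so no direction can be read. Those 2 scalings moved the median of all tested genes by 0.19 and 0.49, and relative to that median Fgfr2 stood at -0.09 and -0.07. Fgfr2 exons share 314 bases with Ctbp2 on the same strand. Fgfr4, a receptor best known from liver and muscle progenitors, had 4 to 10 counts in the controls and 8 to 13 in the libraries labelled Thy-Tet1-/-, or 0.222 to 0.535 against 0.436 to 0.770 CPM. The groups overlapped. It did not pass the filter on low counts, and without that filter its log2 fold change was 0.48 ± 0.61 (SE), smaller than its error.

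Of the 9 genes, 8 passed that filter. Their log2 fold change was above 0 for 6 and below 0 for 2, and the groups did not overlap for 6, with 5 higher and 1 lower in the libraries labelled Thy-Tet1-/-. The same was true of 26.8% of the 14143 genes tested. The gene set was chosen with this comparison known, so nothing is read from that count.

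**Figure D2:**
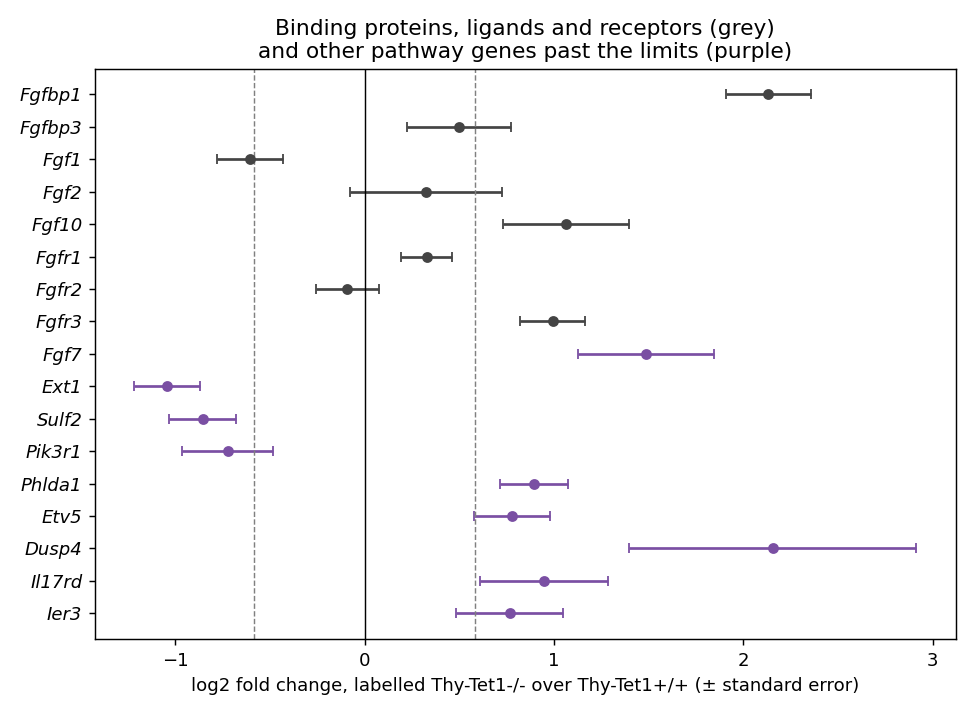
Log2 fold change (libraries labelled Thy-Tet1-/- over Thy-Tet1+/+, n = 3 each) with its standard error for the 8 FGF genes tested (grey) and the 9 other pathway genes past the fold and unadjusted p limits (purple), with dashed lines at the 1.5-fold limit. Fgfbp1 and Dusp4 lie farthest to the right, at 2.13 and 2.15, but the standard error of Dusp4 is 0.76 against 0.22.

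Levels per length allow the genes to be compared with each other. On the scale of CPM per kb of annotated exon, averaged over the 6 libraries, Fgf1 had the highest level at 28.6, followed by Fgfr2 at 16.0, Fgfr1 at 5.74, Fgfbp1 at 5.13 and Fgfr3 at 3.24. Fgfbp3 had 2.32, Fgf10 had 1.77, Fgf2 had 0.451 and Fgfr4 had 0.139. Fgf1 and Fgfr2 thus dominated the ligands and receptors measured here, and Fgfr4 was at the lower end. Fgfbp1 changed its place. It was the sixth of the 9 in the controls, with 1.91 ± 0.0577, and the third in the libraries labelled Thy-Tet1-/-, with 8.36 ± 1.84 CPM per kb (SD, n = 3 each).

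Of the 8 pairs of neighbours in this order, 5 kept it in all 6 libraries. The mean ratio was 1.75 for Fgf1 over Fgfr2, 2.79 for Fgfr2 over Fgfr1, 1.41 for Fgfbp3 over Fgf10, 3.71 for Fgf10 over Fgf2 and 3.32 for Fgf2 over Fgfr4. Each had p = 0.03125 in a two-sided exact sign-flip permutation test, the smallest p that 6 libraries can give, and an adjusted p of 0.05 over the 8 pairs. Fgfr3 exceeded Fgfbp3 in 5 of 6 libraries, with a mean ratio of 1.34 and p = 0.0938 (adjusted 0.125) in the same exact test, so with this length these neighbours did not differ beyond their spread. Fgfbp1 lay below Fgfr1 in 4 libraries and above Fgfr3 in 4. Its pairs counted among the 8 of the adjustment, but nothing is read from them because Fgfbp1 was chosen for its difference between the groups. The order was set from the mean of the same 6 libraries, which favours agreement with it. The order depends on the length used. With the longest transcript in place of all exons, Fgf1 exceeded Fgfr2 in only 3 of 6 libraries (mean ratio 1.03, p = 0.844 in the exact sign-flip test), so their order is uncertain. Fgfbp3 exceeded Fgf10 in only 4 of 6 (mean ratio 1.26, p = 0.125 in the exact test), whereas Fgfr3 then exceeded Fgfbp3 in 6 of 6 (mean ratio 2.26, p = 0.03125 in the exact test). The order of Fgfr2 over Fgfr1, Fgf10 over Fgf2 and Fgf2 over Fgfr4 was the same in all 6 libraries with either length.

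**Figure D3:**
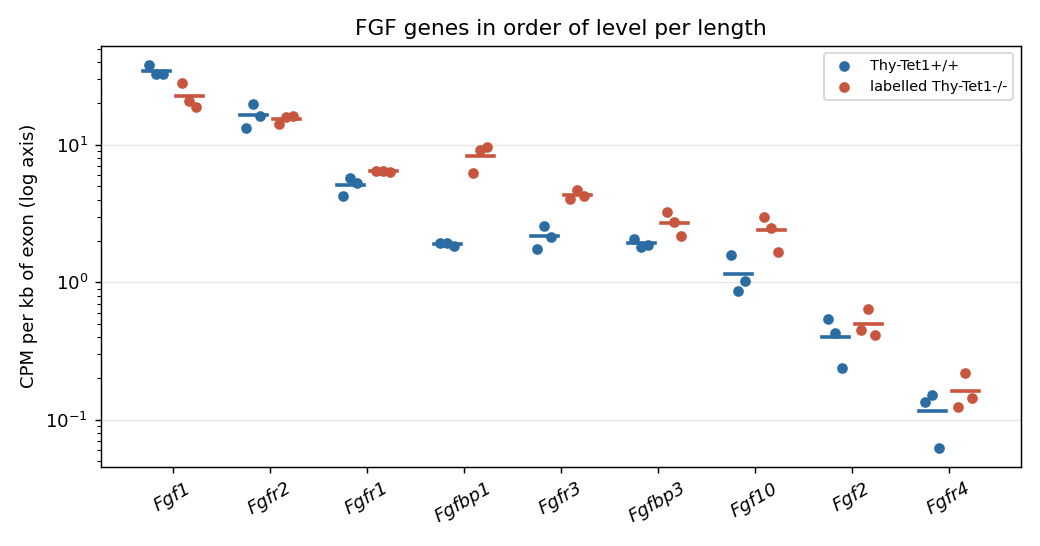
Level per length in CPM per kb of annotated exon (log axis) for the 9 FGF genes, ordered by their mean over the 6 libraries, with a point for each library and a line at the group mean. Fgf1 and Fgfr2 are highest and Fgfr4 lowest, and Fgfbp1 is the gene whose place differs most, with means of 1.91 in Thy-Tet1+/+ and 8.36 in those labelled Thy-Tet1-/-.

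The make-up of the receptor pool differed accordingly. As a share of the summed receptor level per length, Fgfr2 took 69.0 ± 1.02% in the controls and 58.7 ± 1.70% in the libraries labelled Thy-Tet1-/-, and Fgfr3 took 9.07 ± 0.0357% and 16.4 ± 0.787% (SD, n = 3 each). Fgfr1 took 21.4 ± 1.12% and 24.3 ± 1.64%, and Fgfr4 0.495 ± 0.214% and 0.608 ± 0.164%. A share within a library does not depend on how the libraries are scaled. The Fgfr3 share was nearly the same in the 3 controls, from 9.03 to 9.09%, and lay between 15.7 and 17.3% in the other group. The controls had 106, 346 and 277 Fgfr3 counts. Their shares lay closer together than counting error alone would be likely to give, so nothing is read from that closeness.

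**Figure D4:**
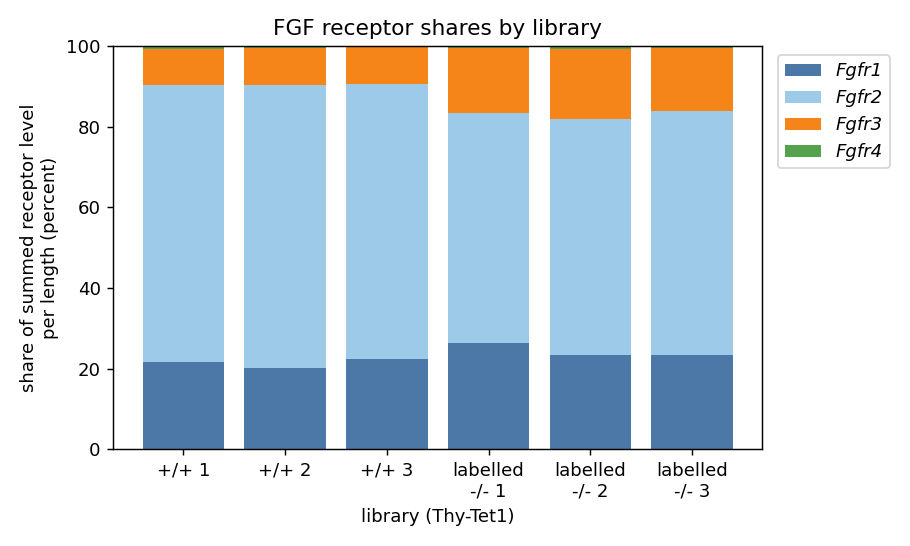
Share of each receptor in the summed level per length of Fgfr1 to Fgfr4 (percent) for each of the 6 libraries, as stacked bars from 0 to 100. Fgfr2 is the largest part in every library, and the Fgfr3 part is 9.03 to 9.09% in Thy-Tet1+/+ and 15.7 to 17.3% in those labelled Thy-Tet1-/-.

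The rest of the pathway was examined with a list of 112 other genes, of which 111 were in the table and 90 were tested in the same fit. By the study's limits, a 1.5-fold difference and an unadjusted p under 0.05, 6 (6.67%) were higher and 3 (3.33%) were lower in the libraries labelled Thy-Tet1-/-, next to 5.54% higher and 3.66% lower among all tested genes. The pathway as a whole was thus close to the background. Its gene lists were chosen with earlier results of these data known, so the shares of each list given below are descriptions. The list of all 90 is described here first. Its median log2 fold change was -0.08, with 41 genes above 0 and 49 below, beside a median of 0.00063 over all tested genes. None had an adjusted p under 0.05 in edgeR's quasi-likelihood test, while 21 had an unadjusted p under 0.05, a criterion that 18.9% of all tested genes met. DESeq2 gave an adjusted p under 0.05 for 10 of the 90, and for 8.34% of all genes. With limma-voom 0 of the 90 had an adjusted p under 0.05 and 21 an unadjusted one, beside 0.0919% and 19.2% of all genes. Libraries are the only replicates, and nothing in the sources says how the glands were batched, so these p-values measure the spread between 3 libraries a group.

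Among the other ligands, Fgf7 was the only one past the limits of the 6 tested. Fgf7, the keratinocyte growth factor, is made by mesenchymal cells and, like Fgf10, acts on the epithelial form of Fgfr2. It had 0.830, 1.23 and 1.11 CPM in the controls and 2.29, 3.38 and 3.35 CPM in the libraries labelled Thy-Tet1-/-. The groups did not overlap, and the log2 fold change was 1.49 ± 0.36 (SE) with an adjusted p of 0.116 in edgeR. The range over the alternatives was 0.029 to 0.322. The other 5 were Fgf9, Fgf11, Fgf12, Fgf13 and Fgf14, with overlapping groups and log2 fold changes between -0.39 and 0.47. A further 13 ligands were too low to test, with Fgf8 and Fgf15 at 0 counts in every library.

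No co-receptor or cell surface partner of the 19 tested passed the limits in either direction. The pair with the highest level were Hspg2, which encodes the heparan sulfate proteoglycan perlecan, and Sdc4, a syndecan of the cell surface. Hspg2 had a log2 fold change of -0.07 ± 0.18 (SE; adjusted p = 0.867 in edgeR), which turned to 0.10 with library totals and 0.39 with scaling to the epithelial genes, but was -0.08 and -0.09 relative to the median of all genes. Sdc4 had -0.19 ± 0.16 (SE; adjusted p = 0.585 in edgeR), which turned to 0.30 with the latter scaling and was -0.19 relative to that median.

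Of the 17 enzymes tested that build and trim heparan sulfate, 2 (11.8%) were lower by the limits and 0 higher, beside 3.66% and 5.54% of all tested genes. Ext1 encodes a polymerase that extends the heparan sulfate chain. It had 37.1, 50.8 and 53.8 CPM in the controls and 23.2, 20.3 and 25.3 CPM in the libraries labelled Thy-Tet1-/-, with a log2 fold change of -1.04 ± 0.17 (SE) and an adjusted p of 0.0805 in edgeR (7.6e-05 to 0.307 over the alternatives). Sulf2 encodes an extracellular sulfatase that removes 6-O-sulfate groups from these chains. It had 125, 187 and 136 CPM in the controls and 89.0, 85.7 and 73.3 CPM in the libraries labelled Thy-Tet1-/-, with a log2 fold change of -0.85 ± 0.18 (SE) and an adjusted p of 0.0988 in edgeR (0.0013 to 0.322 over the alternatives). For both genes the groups did not overlap. With scaling to the epithelial genes, whose sum was lower in the same libraries, the log2 fold changes were -0.54 and -0.35 and the limits were no longer met. Relative to the median of all genes they were -1.03 and -0.83, which repeats the main fit because the scaling moved all genes by nearly the same amount.

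Of the 27 genes of the intracellular relay, all of which were tested, 1 (3.70%) was lower and 0 higher by the limits, beside 3.66% and 5.54% of all tested genes. The groups did not overlap for 12 (44.4%), beside 26.8% of all tested genes. In edgeR 9 had an unadjusted p under 0.05, a criterion that 18.9% of all tested genes met. The log2 fold change was above 0 for 10 and below 0 for 17. Pik3r1, a regulatory subunit of phosphoinositide 3-kinase, had 362, 372 and 201 CPM in the controls and 181, 195 and 190 CPM in the libraries labelled Thy-Tet1-/-. Control 3 lay close to the second group. The log2 fold change was -0.72 ± 0.24 (SE; adjusted p = 0.182 in edgeR, 0.0437 to 0.475 over the alternatives). The call was lost without control 1 (-0.60), without control 2 (-0.58) and without labelled Thy-Tet1-/- 1 (-0.71).

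Of the 21 feedback inhibitors and target genes tested, 5 (23.8%) were higher by the limits and 0 lower, beside 5.54% and 3.66% of all tested genes, and 3 of the 5 calls were lost when single libraries were left out. In edgeR the same 5 (23.8%) had an unadjusted p under 0.05, a criterion that 18.9% of all tested genes met. The groups did not overlap for 6 (28.6%), beside 26.8% of all tested genes. By these 2 measures the list was nearer the background. The median log2 fold change of the list was 0.23, beside 0.00063 over all tested genes. The list was chosen with earlier results of these data known, so these shares are descriptions. Etv5, a transcription factor of the ETS family induced by FGF signals, had 82.5, 69.1 and 49.3 CPM in the controls and 131, 110 and 104 CPM in the libraries labelled Thy-Tet1-/-. Phlda1, a protein with a pleckstrin homology-like domain, had 76.5, 65.0 and 46.9 CPM against 116, 118 and 116 CPM. For both genes the groups did not overlap. The log2 fold changes were 0.78 ± 0.20 (SE) for Etv5 and 0.89 ± 0.18 (SE) for Phlda1, with adjusted p of 0.126 and 0.0965 in edgeR and ranges over the alternatives of 0.0091 to 0.361 and 3.9e-04 to 0.322.

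The other 3 calls depended on which libraries were included. Dusp4, a nuclear phosphatase of MAP kinases, had 2.37, 0.642 and 0.721 CPM in the controls and 10.2, 2.84 and 2.90 CPM in the libraries labelled Thy-Tet1-/-, a log2 fold change of 2.15 ± 0.76 (SE; adjusted p = 0.204 in edgeR). It was 1.25 without labelled Thy-Tet1-/- 1, 1.83 without control 2 and 1.87 without control 3, each time with a p above the limit. Il17rd, a membrane inhibitor of FGF signalling, had 12.3, 5.99 and 5.99 against 12.5, 18.5 and 15.4 CPM, a log2 fold change of 0.95 ± 0.34 (SE; adjusted p = 0.207 in edgeR). Its call was lost without control 2 (0.77), control 3 (0.77) or labelled Thy-Tet1-/- 2 (0.80). Ier3, an early response gene, had 4.39, 7.59 and 7.43 against 12.3, 8.77 and 12.2 CPM, a log2 fold change of 0.77 ± 0.28 (SE; adjusted p = 0.217 in edgeR). Its call was lost without control 1 (0.56), labelled Thy-Tet1-/- 1 (0.66) or labelled Thy-Tet1-/- 3 (0.68).

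Several other feedback inhibitors and target genes, named here after their values were seen, did not pass the limits. Spry1, Spry2 and Spry4 had log2 fold changes of 0.24, 0.05 and -0.40, Dusp6 had 0.23 and Etv4 had 0.07, all with overlapping groups. MAP kinase target genes also respond to other growth factors, and the list does not separate those signals from FGF.

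**Figure D5:**
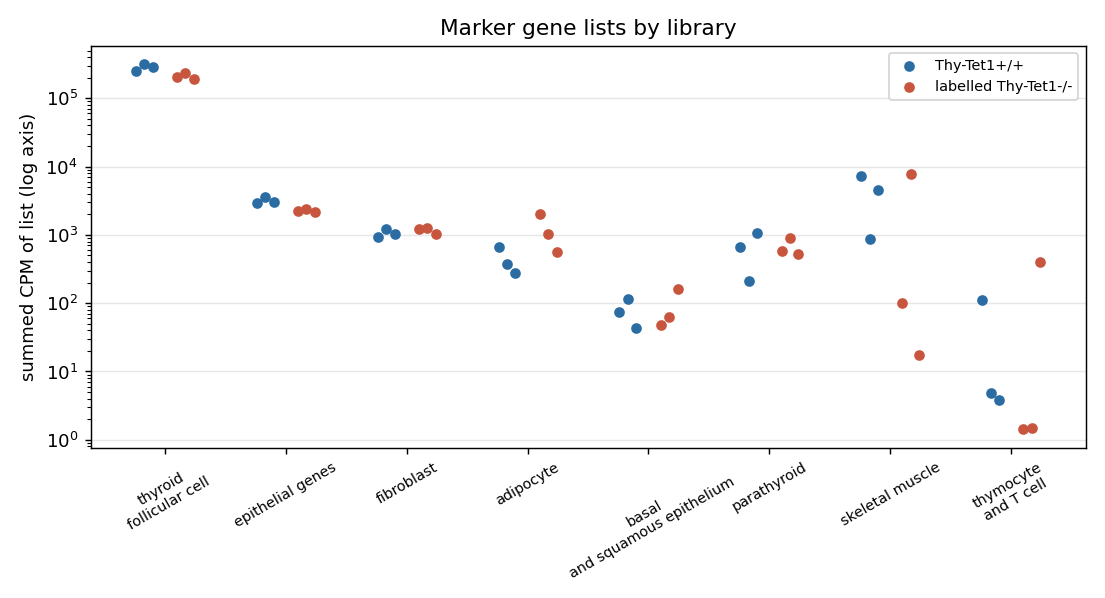
Summed level in CPM (log axis) of 8 marker lists in each library, Thy-Tet1+/+ in blue and labelled Thy-Tet1-/- in red. The sums of follicular genes, of which Tg is 99.1 to 99.4%, and of epithelial genes are lower in the second group without overlap, the adipocyte sums overlap at 565 to 660 CPM, and those of skeletal muscle and thymocytes vary most within a group.

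The genes whose levels followed Fgfbp1 most closely over the 6 libraries were Tril, with Pearson's r of 0.998 on log2 CPM, Rbfox2 (0.996), Cdk17 (0.991), Cep126 (0.990) and Mbd4 (0.989). Tril had 10.1, 10.3 and 10.2 CPM in the controls and 17.6, 20.1 and 21.9 CPM in the libraries labelled Thy-Tet1-/-. Its controls were as close together as those of Fgfbp1, and its second group had the same order. In all, 106 tested genes had an r above 0.95. With 6 libraries in groups of 3 the values share their libraries and the gap between the groups, so these correlations are descriptions of these libraries.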

How the data were processed

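RNA was sequenced from 6 mouse thyroid glands, 3 per group, and groups were taken from the sample labels. The authors deposited raw counts per gene for 21878 genes, whole numbers without normalization, of which 4100 had no read. The submitters' processing notes name mm10, while the aligner, the counter and the use of strand are not given in the sources used here. The labels describe poly(A)-selected, directional libraries, and their protocol text speaks of retinas although the tissue is given as thyroid. There were 0 value columns without a sample, and 27 symbols turned into dates were restored from their NCBI gene numbers. The members and gene lists were chosen with earlier results of these data known.

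The fit used edgeR 4.0.16 under R 4.3.3. Low genes were removed with filterByExpr, which left 14143, TMM factors scaled the libraries, and the group term was tested by quasi-likelihood (glmQLFTest) with the Benjamini-Hochberg adjustment over all tested genes. The common dispersion gave a biological coefficient of variation of 0.327. Standard errors are the log2 fold change divided by the square root of F. The limits of 1.5-fold and an unadjusted p under 0.05 are those of the study. CPM used TMM-scaled library sizes, and log2 CPM a prior count of 2. Floors of 3 counts cover counting error only. Exon lengths and overlaps came from GENCODE M21 (GRCm38, the build called mm10), and promoter windows, given for 7 of the 9 genes, from RefSeq on GRCm38.p6. The scripts were tested on simulated data.

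The text names the 9 genes, Tet1, up to 5 higher and 5 lower genes past the limits in each pathway list (or the 2 with the highest mean CPM where a list has none), the 5 tested genes most correlated with Fgfbp1, and genes with overlapping exons. Other genes, such as Spry1 and Dusp6, were named after their values were seen. Lect1 in the table was matched to Cnmd, and Spry3 was not matched. Alternatives were RLE size factors, library totals, scaling to 10 epithelial genes, DESeq2 1.42.0, limma 3.58.1 (voom), no filter, at least 10 counts in every library, the replicate number as a block, each library left out, and the longest transcript as length. Levels of neighbouring genes were compared with two-sided exact sign-flip permutation tests over 6 libraries.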

Additional observations from a re-analysis of the deposited data

How the results depend on the processing

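Most values kept their direction and their side of the limits under the alternatives run. Among the pathway genes, the 6 higher calls became 13 with library totals and 25 with scaling to the 10 epithelial genes, and the 3 lower calls became 0 with that scaling, while the calls over all tested genes rose from 1301 to 4128. These scalings move the median of all genes by 0.19 and 0.49 on the log2 scale. Relative to it Fgfbp1 stood at 2.13 and 2.14, and Fgf1 at -0.61 with both. A scaling moves all genes by nearly the same amount, so values relative to the median repeat the main fit and are no further support. With each library left out, the higher pathway calls numbered 4 to 9, the lower calls 3 to 5 (5 without labelled Thy-Tet1-/- 1 and without labelled Thy-Tet1-/- 2), the calls over all genes 1067 to 1486, and the members above 0 numbered 6 to 7. Fgfr2 reversed to 0.10 with library totals, 0.42 with the epithelial genes and, with each library left out, ranged from -0.22 to 0.070 (without control 2). Hspg2 reversed to 0.10 and 0.39 with the same scalings and ranged from -0.15 to 0.091 with each library left out, above 0 without control 1 and without labelled Thy-Tet1-/- 3 (0.03), and Sdc4 to 0.30 with the epithelial genes. Relative to the shifted median, Fgfr2 stood at -0.09 and -0.07, Hspg2 at -0.08 and -0.09 and Sdc4 at -0.19 with both scalings, so these scaling reversals are the common shift of all genes. The cause of those with a library left out was not tested. The Pik3r1 call was also lost with library totals (-0.54) and the epithelial genes (-0.23), at -0.73 and -0.71 relative to the median. Fgf7, Phlda1 and Etv5 kept their calls in every alternative in which they were tested, and Fgf7 was left out by the minimum of 10 counts in every library. The labels number the mice 1 to 3 in each group, but the deviations of same-numbered libraries correlated at -0.17, -0.37 and -0.19, so the numbers do not pair the samples. With the replicate block, 5 pathway genes were higher and 3 lower, 1145 genes were called over all, 6 members lay above 0, the Ier3 call was lost at 0.79, and 0 genes had an adjusted p under 0.05 in edgeR, with 13 pathway genes at an unadjusted p under 0.05. At this depth Fgfr4 and 13 of the other ligands had too few counts to be tested.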
